A study of Mus musculus with 20 samples.

Results

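The mRNA levels of 10 genes of the tumour necrosis factor and NF-kB system were examined in colon tissue of 20 mice. The genes were the ligand Tnf, its receptors Tnfrsf1a and Tnfrsf1b, the negative regulators Tnfaip3 and Nfkbia, the nuclear cofactor Nfkbiz, and the transcription factors Rela, Nfkb1, Nfkb2 and Relb. They were chosen by name, with earlier results of these data known. They are 10 of the 32991 genes with annotated transcripts in the data. The level of a gene was the sum of the FPKM values (fragments per kilobase of transcript, scaled to the size of the library) of its Ensembl transcripts in each mouse.

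TNF is a cytokine released mainly by activated macrophages and T cells. Its binding to TNFR1, which most cells carry, or to TNFR2, which is found mostly on immune and endothelial cells, leads to phosphorylation and degradation of IkB proteins, so that NF-kB dimers enter the nucleus. In the inflamed gut this system drives chemokines, adhesion molecules and survival genes, and it also switches on its own inhibitors. Because NF-kB proteins are regulated mainly after translation, mRNA levels do not measure their activity.

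The study asked what PZH (Pien Tze Huang, a compound remedy of Chinese medicine) does in a mouse model of colitis-associated colorectal cancer. The male C57BL/6 mice formed 4 groups of 5, with 1 library per mouse, and tissue was taken on day 91. The Control group received water by gavage, without any agent, and the PZH group received PZH at 250 mg/kg per day. The Model group was injected with azoxymethane (AOM, a carcinogen) at 12.5 mg/kg and drank 2% dextran sodium sulfate (DSS, which injures the epithelium) in repeated cycles, with water by gavage. The Model + PZH group received AOM, DSS and PZH at the same doses. The model induces tumours with a chemical and repeated injury, and whether a piece of colon held tumour is not given in the sources used here.

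The depth was read from the steps of the low FPKM values and lay between 15.3 and 19.4 M fragments per mouse. No 2 libraries held identical values. All 7 colon markers, such as Cdx1 and Cdx2, were above 0 in every mouse, which is what colon tissue should show, although the extraction text of the labels also names an aorta. Epcam, an epithelial gene, was listed at 0 in all Control mice while the other 6 epithelial markers were above 0 in every mouse. The summed level of the 5 squamous epithelium markers was 299 and 249 FPKM in Control mice 17 and 50, against 0.824 to 1.64 in the other Control mice, 0.325 to 1.05 in PZH, 11.4 to 34.7 in Model and 2.49 to 57.9 in Model + PZH. The comparisons with Control were therefore also made without mice 17 and 50, a choice made after seeing the data, and the part of squamous tissue in the levels was not tested. Between 12.1 and 14.85% of the FPKM of a mouse had gone to assembled transcripts without a gene name, so that a gene can be listed too low, and this was not tested for the 10 genes.

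The promoters of 7 of the 10 genes were in the RefSeq table of the GRCm38.p6 build. The NF-kB consensus motif (a 10-base sequence, searched on both strands in the 250 bases before each start) was present for 3 of these 7, namely Nfkbia, Nfkb2 and Tnfaip3, and for 4.46% of the 27025 genes in the table. Their motifs are shown because these genes encode parts of the feedback and precursor arms of the system and their levels are described further on. Each sequence runs 5′ to 3′ on the strand of its gene, with the motif in capitals. The motif in Nfkbia began 29 bases before the start, and those in Nfkb2 and Tnfaip3 began 39 and 12 bases before it.
Nfkbia, chr12:55492648-55492696, minus strand: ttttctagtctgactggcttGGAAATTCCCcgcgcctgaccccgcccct
Nfkb2, chr19:46304688-46304717, plus strand: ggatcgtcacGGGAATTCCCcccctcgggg
Tnfaip3, chr10:19015411-19015442, minus strand: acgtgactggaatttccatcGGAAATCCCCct
The Nfkb2 window lies in an exon of another annotated transcript of that gene and the other windows overlap no annotated exon of their gene. The Nfkb2 motif reads the same on both strands and overlaps another match that is shifted by 1 base. Further matches began 125 bases before the same Tnfaip3 start and 11 bases before the same Nfkb2 start. At other Nfkb2 starts matches began 236 and 225 bases before the start, and the window of another Tnfaip3 start held none. A match describes these letters only, and binding was not measured. The searched windows of Tnf, Tnfrsf1a, Tnfrsf1b and Rela held no match.

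Tnf, Tnfrsf1b, Rela and Nfkb1 were higher in the Model group than in the Control group, with fold changes of mean FPKM of 5.23, 2.78, 1.57 and 1.57, and in each the 5 Model mice lay above the 5 Control mice. Nfkbia and Tnfaip3 also passed the test, but less firmly. The call of Nfkb1 was lost with protein-coding transcripts only (adjusted p = 0.0639 by limma) and with the most abundant transcript (adjusted p = 0.231). In total 6 of the 10 genes passed an adjusted p under 0.05, all of them higher, against 23.6% of the 15812 genes tested in this comparison. At an unadjusted p under 0.05 there were 7 of 10, against 36% of all genes, and with a fold over 2 on the log2(FPKM + 1) scale in addition there were 3 of 10, against 7.71%. The groups did not overlap for 5 of 10, against 18.4%. The median log2 fold change of the 10 genes was 0.63, against 0.09 over all genes tested. Without Control mice 17 and 50, Tnf, Tnfrsf1b, Rela, Nfkb1 and Nfkbia passed an adjusted p under 0.05 and Tnfaip3 did not. Fold changes given with an SE, and all those further on, are on the log2(FPKM + 1) scale from limma, which understates the change of low genes.

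**Figure D1:**
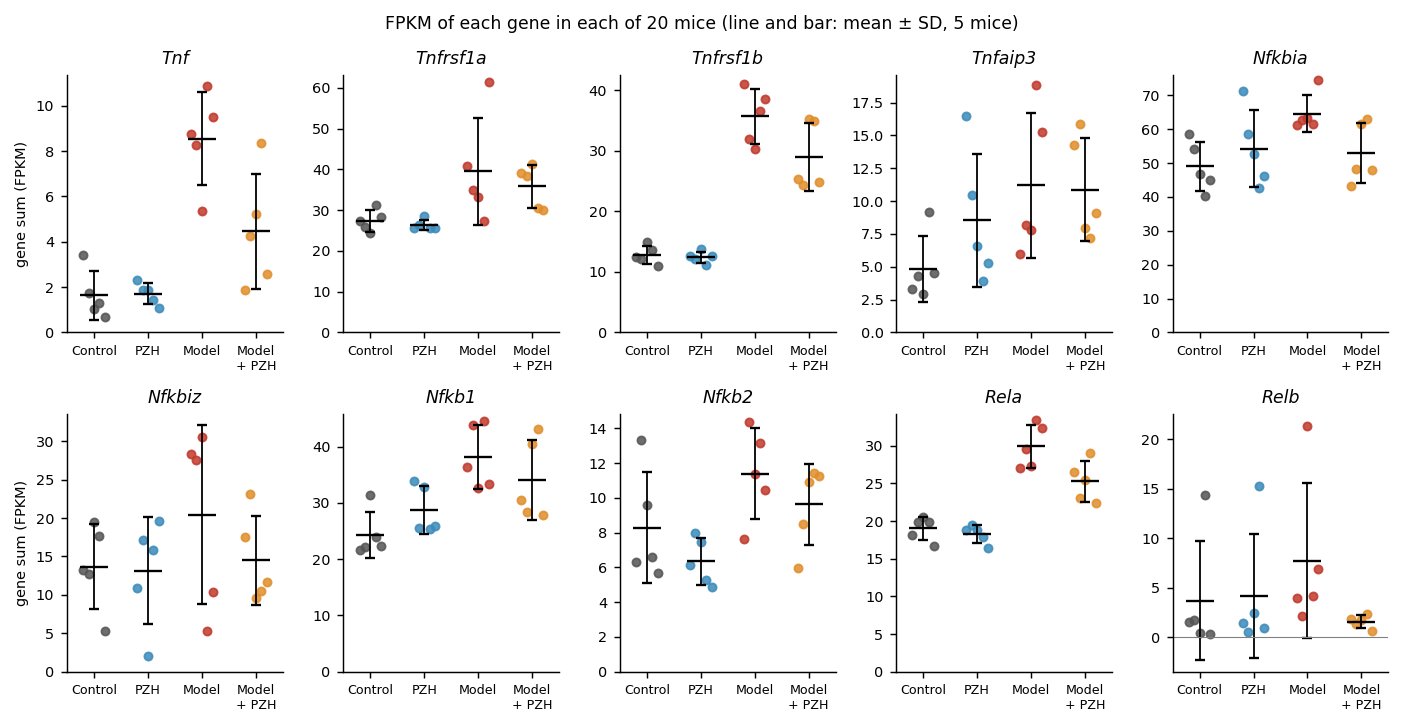
FPKM of the 10 genes (vertical axes, 1 panel per gene) in the 4 groups (horizontal axes), 1 point per mouse, with a line and bar for the mean ± SD of 5 mice. Tnf, Tnfrsf1b and Rela are higher in all 5 Model mice than in any Control mouse, and in 3 groups 1 mouse stands far above the others for Relb.

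Tnf encodes the ligand and lies on chromosome 17 from 35199381 to 35202007 on the minus strand (GRCm38). It was measured by its single quantified transcript, Tnf-201, of 1639 bases. In Control mice 17, 37, 41, 48 and 50 it was at 3.41, 1.74, 1.04, 1.29 and 0.68 FPKM, and in PZH mice 8, 14, 27, 46 and 53 at 2.32, 1.89, 1.85, 1.41 and 1.09. In Model mice 23, 30, 33, 44 and 52 it was at 8.76, 8.28, 5.34, 10.9 and 9.50 FPKM, and in Model + PZH mice 2, 13, 15, 35 and 36 at 1.89, 4.26, 5.21, 8.35 and 2.56. Control and PZH mice overlapped, the Model mice lay above all of them, and the Model + PZH mice ran from the level of PZH mice up to that of the Model mice. These levels rest on few fragments, with an estimated 19.0 to 91.5 per Control mouse (median 34.0) and 168.3 to 300.0 per Model mouse (median 243.8).

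Tnf was higher in Model than in Control by a log2 fold change of 1.91 (SE 0.26, adjusted p = 0.000588), and it passed the test without any single mouse in turn. Control mouse 17, with the highest Tnf of its group, also had the highest neutrophil sum of its group (398 FPKM) and the highest squamous sum of all mice, and without mice 17 and 50 the log2 fold change was 2.00 (adjusted p = 0.000715 by limma). In Model + PZH it averaged 4.45 ± 2.54 FPKM (SD, n = 5), against 8.55 ± 2.04 in Model. The difference of -0.90 (SE 0.30, 95% interval -1.58 to -0.23) had an unadjusted p of 0.0135 in the limma fit but did not pass adjustment over all genes (adjusted p = 0.356). Of the Model + PZH mice, 4 lay below the lowest Model mouse and mouse 35 lay within the Model range. Of the 10 fits that left out 1 mouse, only that without mouse 35 passed (log2 fold change -1.13, adjusted p = 0.0390 by limma). In the others the adjusted p was up to 0.615. Mouse 35 also had the lowest colon marker sum of its group, 1046 FPKM against 2496 to 3549 in the others. Its neutrophil and macrophage marker sums, 345 and 146 FPKM, were the highest of the group. So was its squamous marker sum, 57.9 FPKM against 2.49 to 9.07 in the others.

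The mean Tnf level fell in the order Model, Model + PZH, PZH and Control, and no neighbours in this order differed at an adjusted p under 0.05. For Model + PZH the log2 fold change was 0.90 (SE 0.29, adjusted p = 0.117 by limma) against PZH and 1.01 (SE 0.34, adjusted p = 0.131) against Control, where the adjusted p was 0.0332 with all 20 mice in 1 fit. The PZH and Control groups differed by 0.11, with a 95% interval from -0.43 to 0.64.

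The receptors differed from each other in how they moved. Tnfrsf1b, which encodes TNFR2, lies on chromosome 4 from 145213463 to 145246870 on the minus strand. It was at 12.4, 12.2, 14.9, 13.7 and 11.0 FPKM in the Control mice and at 12.6, 12.1, 13.7, 11.2 and 12.6 in the PZH mice. It was at 41.1, 32.0, 30.3, 36.6 and 38.6 FPKM in the Model mice and at 25.4, 24.4, 35.3, 34.97 and 24.9 in the Model + PZH mice (mice in the order given for Tnf). Every mouse that had received AOM/DSS lay above every mouse that had not, and the lower 3 of the Model + PZH mice lay below all Model mice.

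Tnfrsf1b was higher in Model than in Control by 1.41 (SE 0.12, adjusted p = 2.37e-05), in Model + PZH than in Control by 1.10 (SE 0.14, adjusted p = 0.0103) and in Model + PZH than in PZH by 1.14 (SE 0.13, adjusted p = 0.00733). These comparisons share mice, and Tnfrsf1b passed each of them without any single mouse. Without Control mice 17 and 50 together, Model against Control was at 1.33 (adjusted p = 0.000510), and the call of Model + PZH against Control was lost (1.02, adjusted p = 0.0561). Model + PZH and Model differed by -0.30 (95% interval -0.62 to 0.01, adjusted p = 0.440), and PZH and Control by -0.04 (-0.26 to 0.19, adjusted p = 0.927).

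Tnfrsf1a encodes TNFR1, which carries the death domain, and lies on chromosome 6 from 125349362 to 125362484 on the plus strand. It was at 24.3 to 31.3 FPKM in Control mice and 25.5 to 28.5 in PZH mice. It was at 40.9, 34.98, 33.2, 27.4 and 61.4 FPKM in the Model mice and at 39.1, 38.4, 41.3, 30.5 and 29.95 in the Model + PZH mice. The highest value, in Model mouse 52, held 31.4 FPKM of the 250-base non-coding transcript Tnfrsf1a-204, which was at 0 in the other 19 mice, while the main coding transcript Tnfrsf1a-201 was at 28.3 there. The log2 fold change of Model against Control was 0.47 (SE 0.19, adjusted p = 0.0949) and 0.25 (SE 0.12, adjusted p = 0.148) with protein-coding transcripts only. With all 20 mice in 1 fit it passed (0.47, adjusted p = 0.0327). Among the fits without 1 mouse it passed only without Model mouse 44, the lowest of its group (0.58, adjusted p = 0.0484 by limma). The others went down to 0.30, with an adjusted p up to 0.168. Both passing fits kept Model mouse 52. Against PZH, Model + PZH was at 0.42 (SE 0.11) with groups that did not overlap, at an adjusted p of 0.0702 by limma. This value passed with sample weights (adjusted p = 0.0445). Of 10 fits without 1 mouse it passed only without Model + PZH mouse 36 (adjusted p = 0.0496, up to 0.155 in the others).

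The ratio of Tnfrsf1b to Tnfrsf1a within a mouse does not depend on the scaling between mice. Its median was 0.453 in Control (range 0.389 to 0.612), 0.481 in PZH (0.439 to 0.493), 0.916 in Model (0.629 to 1.34) and 0.832 in Model + PZH (0.636 to 1.15). The lowest Model ratio was that of mouse 52, whose Tnfrsf1a sum held the non-coding transcript Tnfrsf1a-204. The other Model mice were at 0.911 to 1.34. The ranges of the AOM/DSS groups overlapped each other and lay above those of the other groups.

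Nfkbia encodes IkBa, which holds NF-kB dimers in the cytoplasm and is itself resynthesised after activation. It was the most abundant of the 10 genes, with a mean of 49.1 FPKM in Control mice, followed by Tnfrsf1a at 27.4, Nfkb1 at 24.3 and Rela at 19.0. It lies on chromosome 12 from 55489410 to 55492647 on the minus strand, downstream of the motif shown above. Nfkbia was at 58.6, 54.3, 46.9, 40.4 and 45.1 FPKM in the Control mice and at 71.2, 58.7, 52.8, 42.6 and 46.3 in the PZH mice. It was at 61.3, 62.6, 63.4, 61.5 and 74.5 FPKM in the Model mice and at 43.3, 48.4, 61.6, 63.1 and 48.1 in the Model + PZH mice. The Model mice lay above the Control mice but overlapped with the PZH mice, and 3 of the 5 Model + PZH mice lay within the Control range.

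Nfkbia was higher in Model than in Control by 0.40 (SE 0.11, adjusted p = 0.0274). The call was lost without Control mouse 41, 48 or 50 or Model mouse 33 or 52 (adjusted p up to 0.0716) and with median-of-ratios scaling (log2 fold change 0.29, adjusted p = 0.146). Model + PZH was at -0.30 against Model (95% interval -0.57 to -0.03, unadjusted p = 0.0345 and adjusted p = 0.398 by limma) and at 0.10 against Control (-0.21 to 0.42). The ratio of Nfkbia to Rela, inhibitor to transcription factor, had a median of 2.69 in Control (2.04 to 3.23), 2.82 in PZH (2.38 to 3.78), 2.26 in Model (1.84 to 2.32) and 2.15 in Model + PZH (1.64 to 2.42).

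Tnfaip3 encodes A20, a ubiquitin-editing enzyme that ends TNF receptor signalling, and lies on chromosome 10 from 19000910 to 19015657 on the minus strand. It was at 3.31, 4.31, 2.95, 9.20 and 4.56 FPKM in the Control mice and at 16.5, 10.5, 6.56, 3.95 and 5.27 in the PZH mice. It was at 5.94, 8.19, 7.77, 18.8 and 15.2 FPKM in the Model mice and at 14.3, 15.8, 7.97, 7.18 and 9.11 in the Model + PZH mice. All 4 groups overlapped. The log2 fold change of Model against Control was 1.03 (SE 0.33, adjusted p = 0.0475), and among the fits that left out 1 mouse the call held only without Control mouse 48 or Model mouse 23 (adjusted p up to 0.11 in the others). It was also lost without filter (adjusted p = 0.0851), with median-of-ratios scaling (0.0670), with sample weights (0.0637), with protein-coding transcripts only (0.111), with the most abundant transcript (0.138) and without Control mice 17 and 50 (0.169). The sum was divided between Tnfaip3-201 and Tnfaip3-202, and the latter held between 1.51 and 87.7% of it in single mice. In PZH mice the level differed from Control by 0.64 (95% interval -0.15 to 1.43, adjusted p = 0.623).

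Nfkbiz encodes IkBz, a nuclear protein that acts with NF-kB p50 at a subset of its targets. It ranged from 5.31 to 19.5 FPKM in Control, 2.09 to 19.7 in PZH, 5.31 to 30.5 in Model and 9.60 to 23.2 in Model + PZH. The Model mice fell apart into mice 23, 30 and 33 at 27.5 to 30.5 FPKM and mice 44 and 52 at 5.31 and 10.4. Model differed from Control by 0.40 with a 95% interval from -0.66 to 1.47 (adjusted p = 0.595). In PZH mouse 27, with the lowest sum, the main transcript Nfkbiz-204 was listed at 0.05 FPKM, against 5.23 to 19.5 in the other 9 Control and PZH mice.

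Rela encodes p65, the transactivating subunit of the main dimer, and lies on chromosome 19 from 5637483 to 5648130 on the plus strand. It was at 18.2, 19.8, 20.6, 19.9 and 16.7 FPKM in the Control mice and at 18.9, 19.5, 18.8, 17.9 and 16.4 in the PZH mice. It was at 27.1, 29.6, 27.3, 33.4 and 32.3 FPKM in the Model mice and at 26.5, 23.1, 25.4, 29.0 and 22.4 in the Model + PZH mice. All mice with AOM/DSS lay above all mice without it, and 4 of the 5 Model + PZH mice lay below the lowest Model mouse. The spread was small, with a coefficient of variation of 6.50 to 10.6% within groups.

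Rela was higher in Model than in Control by 0.63 (SE 0.10, adjusted p = 0.00137). With 1 mouse left out it was at 0.58 to 0.66 (adjusted p from 0.00273 to 0.00647), and without Control mice 17 and 50 at 0.55 (adjusted p = 0.0105). It was at 0.39 (SE 0.11, adjusted p = 0.0858, or 0.0124 with all 20 mice in 1 fit) in Model + PZH against Control. It was higher by 0.44 (SE 0.10, adjusted p = 0.0456) in Model + PZH against PZH. Among the fits without 1 mouse this call held only without Model + PZH mouse 13 or 36. The call was also lost with median-of-ratios scaling (adjusted p = 0.0504 by limma), without filter (0.0788) and with the most abundant transcript (0.0634). Against Model, Model + PZH differed by -0.24 (95% interval -0.47 to 0.00, unadjusted p = 0.0465, adjusted p = 0.421).

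Nfkb1 encodes p105, the precursor of p50, and lies on chromosome 3 from 135584655 to 135691547 on the minus strand. It was at 21.6, 22.2, 31.4, 23.9 and 22.3 FPKM in the Control mice and at 34.0, 25.6, 32.9, 25.3 and 25.9 in the PZH mice. It was at 36.4, 43.9, 32.6, 44.6 and 33.4 FPKM in the Model mice and at 30.5, 28.5, 40.4, 43.1 and 27.9 in the Model + PZH mice. The Model mice lay above the Control mice and overlapped with the PZH and Model + PZH mice. Nfkb1 was higher in Model than in Control by 0.63 (SE 0.13, adjusted p = 0.00695), but the sum held the retained-intron transcripts Nfkb1-202 and Nfkb1-204, and with protein-coding transcripts only the difference was 0.43 (adjusted p = 0.0639). Nfkb1-201, the 4117-base coding transcript, varied widely within every group. It ranged from 0.26 to 10.9 FPKM in Control, 0.16 to 11.0 in PZH, 0.22 to 16.8 in Model and 0.29 to 9.57 in Model + PZH.

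Nfkb2 and Relb form the non-canonical dimer. Nfkb2, which encodes p100, the precursor of p52, ranged from 5.68 to 13.3 FPKM in Control, 4.89 to 8.01 in PZH, 7.63 to 14.4 in Model and 5.99 to 11.5 in Model + PZH. Its difference between Model and Control was 0.45 (95% interval -0.06 to 0.96, adjusted p = 0.191). Without Control mouse 37, the highest of its group, it was 0.62 (adjusted p = 0.0489). The Model and Control ranges overlapped, as did all other pairs of groups.

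Relb was at 1.54, 1.79, 0.49, 14.3 and 0.38 FPKM in the Control mice and at 1.44, 0.56, 2.47, 15.3 and 0.99 in the PZH mice. It was at 4.01, 2.18, 21.4, 4.21 and 6.90 FPKM in the Model mice and at 1.88, 1.31, 1.76, 2.35 and 0.62 in the Model + PZH mice. Control mouse 48, PZH mouse 46 and Model mouse 33 stood far above the other mice of their groups. In those mice the transcript Relb-201 was listed at 13.1, 14.9 and 15.7 FPKM, and in the other 17 mice it was at 2.82 or less. Why these libraries differ was not tested.

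Relb was at -1.44 in Model + PZH against Model (SE 0.45, unadjusted p = 0.00899, adjusted p = 0.356 by limma) and at -1.01 without Model mouse 33 (adjusted p = 0.342). On gene sums it was the only 1 of the 10 genes with a fold over 2 and an unadjusted p under 0.05 in that comparison. With protein-coding transcripts only, Relb was at -1.17 (SE 0.64, adjusted p = 0.494 by limma). The transcript Relb-201 alone was at -0.91 (unadjusted p = 0.154, adjusted p = 0.691). Against Control, Model was at 1.21 (95% interval -0.31 to 2.72, adjusted p = 0.236), and without Control mouse 48 at 1.80 (adjusted p = 0.0346).

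**Figure D2:**
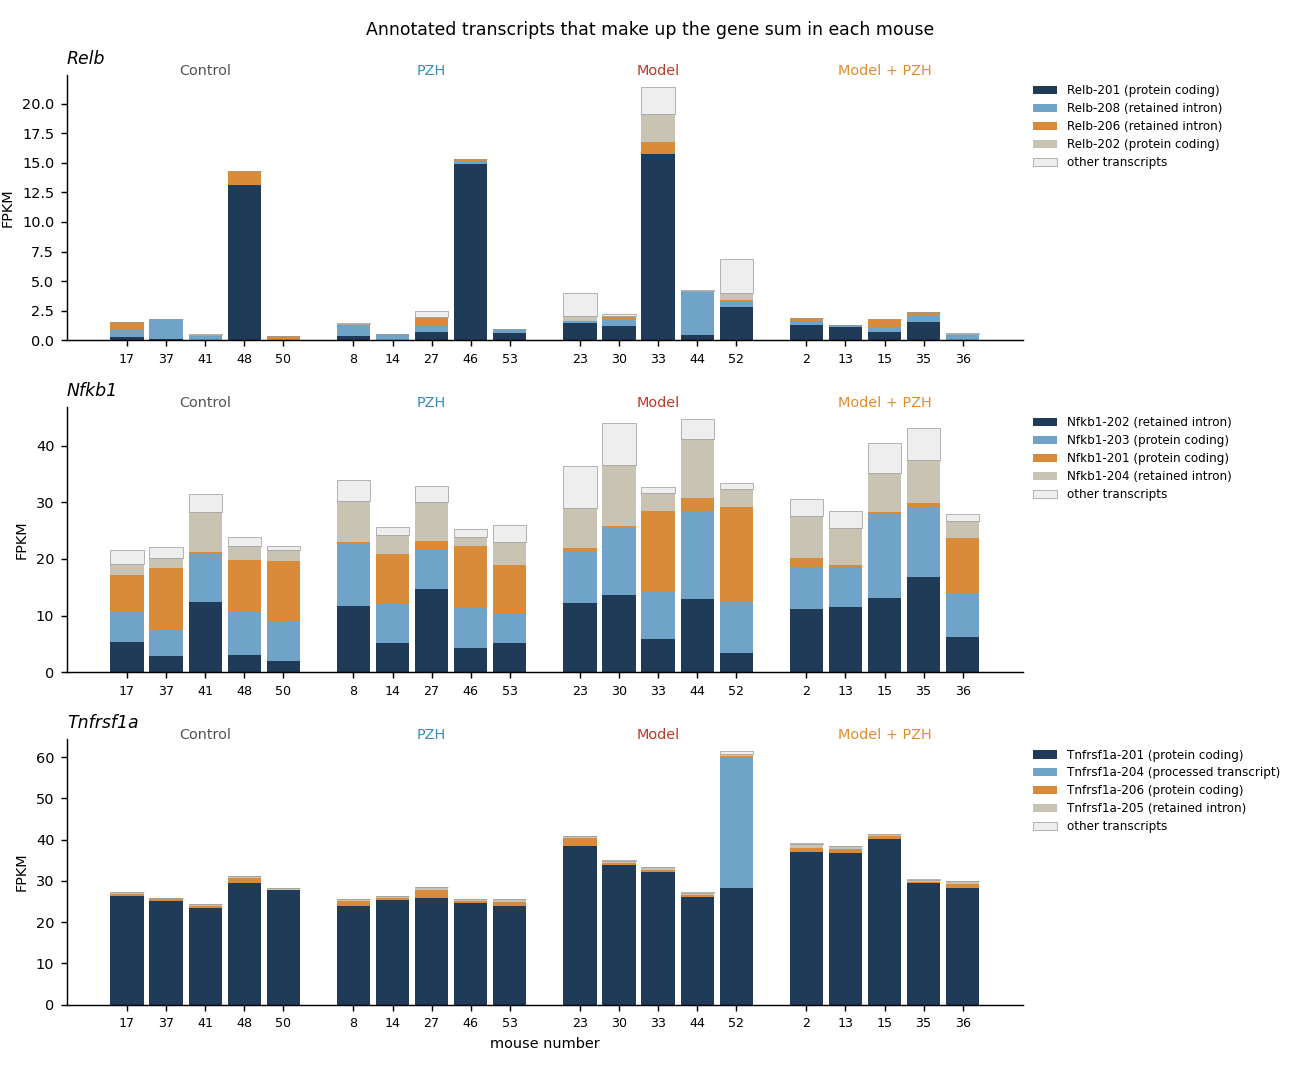
Annotated transcripts of Relb, Nfkb1 and Tnfrsf1a in each mouse (horizontal axis, mouse numbers by group), stacked to the gene sum in FPKM (vertical axis). Relb-201 makes up most of the sum in mice 48, 46 and 33, the mix of Nfkb1 transcripts differs between mice of 1 group, and Tnfrsf1a-204 appears in mouse 52 alone.

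For single transcripts, 4 of the 20 tested transcripts of the 10 genes passed an adjusted p under 0.05 in Model against Control, against 6.94% of the 40464 transcripts tested. They were Tnf-201 (1.91, adjusted p = 0.00243), Tnfrsf1b-201 (1.42, adjusted p = 0.000177), Rela-201 (0.63, adjusted p = 0.00893) and the short Tnfaip3-204 (0.79, adjusted p = 0.0196), all higher. Tnf and Rela were each quantified as 1 transcript, and Tnfrsf1b-201 held at least 93.7% of its gene in every mouse. The sums of Relb, Nfkb1 and Tnfaip3 were divided among several annotated transcripts.

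The comparison of PZH with Control asked what the medicine did without AOM/DSS. None of the 10 genes passed an adjusted or an unadjusted p under 0.05 by limma, against 0.00645% and 8.84% of the 15506 genes tested. The narrowest 95% intervals were those of Tnfrsf1a (-0.24 to 0.14), Rela (-0.25 to 0.14) and Tnfrsf1b (-0.26 to 0.19), and the widest was that of Relb (-1.48 to 1.85).

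The comparison of Model + PZH with Model asked what the medicine did in mice with AOM/DSS. None of the 10 genes passed an adjusted p under 0.05, against 0.00629% of the 15888 genes tested, which is a single gene. The count over all genes rested on 1 library, since without Model + PZH mouse 35 it was 808, of which 119 were higher and 689 lower, with Tnf as the only 1 of the 10 genes among them. With all 20 mice in 1 fit it was 89, and none of the 10 genes passed. Tnf, Nfkbia, Rela and Relb were lower at an unadjusted p under 0.05, 4 of 10 against 11.7% of all genes, and Relb alone also passed a fold of 2, against 2.4%. The groups overlapped for each of the 10 genes, and 1.08% of all genes did not overlap. The median log2 fold change of the 10 genes was -0.26, against -0.04 over all genes.

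Against the mice without AOM/DSS, the Model + PZH group was higher than Control at an adjusted p under 0.05 in 1 of 10 genes, Tnfrsf1b, with 2.42% of 15616 genes called. At an unadjusted p there were 6 of 10, against 20.9%. It was higher than PZH in 2 of 10, Tnfrsf1b and Rela, against 2.42% of 15636 genes, and in 5 of 10 at an unadjusted p, against 20.9%. The groups did not overlap for 3 of 10 (Tnfrsf1a, Tnfrsf1b and Rela), against 7.37%. These shares moved with single libraries. The 378 genes called against Control became 78 without Model + PZH mouse 15, 495 without mouse 13, 29 without Control mice 17 and 50, and 1503 with all 20 mice in 1 fit. The 378 genes called against PZH became 54 without PZH mouse 27, 423 without Model + PZH mouse 36, and 1002 with all 20 mice in 1 fit. These comparisons share the Model + PZH mice.

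The interaction asked whether the PZH difference depended on AOM/DSS. None of the 10 genes passed an adjusted p under 0.05 by limma, against 0.0129% of 15551 genes, and 2 of 10, Tnf and Nfkbia, had an unadjusted p under 0.05, against 9.63%. The 2 genes called over all genes became 250, of which 40 were higher and 210 lower, without Model + PZH mouse 35. The interaction was -1.01 for Tnf (SE 0.41, unadjusted p = 0.0227, adjusted p = 0.459) and -0.43 for Nfkbia (SE 0.20, unadjusted p = 0.0410, adjusted p = 0.503).

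**Figure D3:**
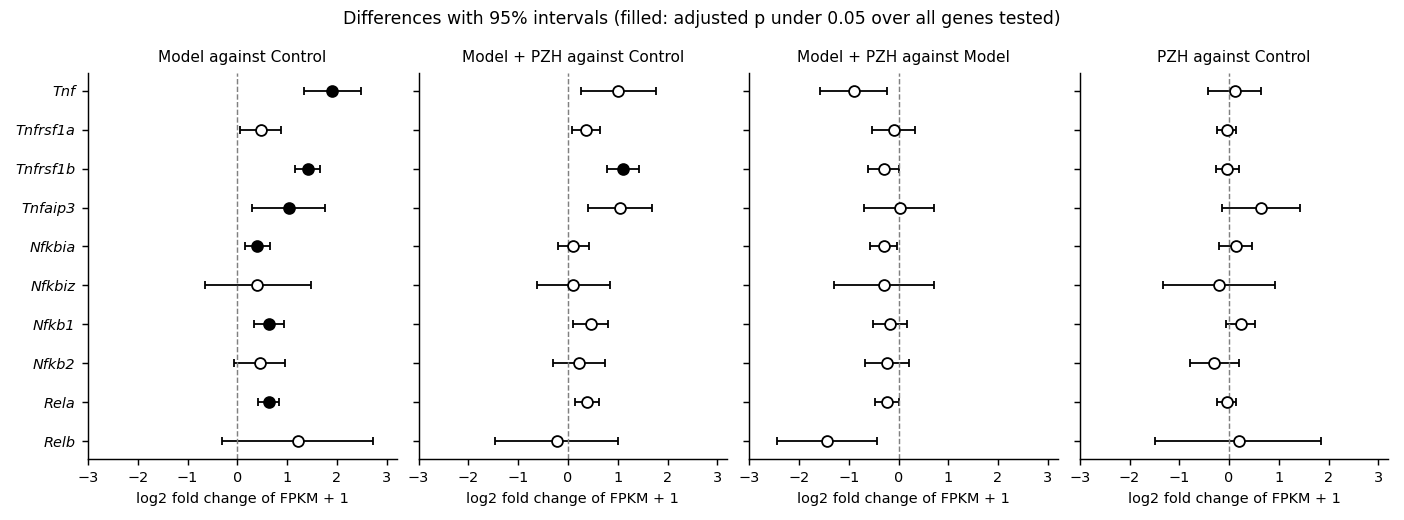
Log2 fold changes of FPKM + 1 (horizontal axes) with 95% intervals for the 10 genes (rows) in 4 comparisons, with filled points at an adjusted p under 0.05. Model against Control holds 6 filled points and Model + PZH against Control holds 1, Tnfrsf1b, and the other 2 comparisons hold none.

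Several marker genes of immune cells moved with the same groups. In bulk tissue, more or fewer cells of a type and more or less RNA per cell cannot be told apart. The 7 macrophage and monocyte markers, such as Cd68 and Csf1r, were above 0 in every mouse, and their summed level was 63.9 to 87.3 FPKM in Control, 62.7 to 93.8 in PZH, 119 to 155 in Model and 96.4 to 146 in Model + PZH. In Model against Control, 5 of 7 of them were higher at an adjusted p under 0.05, against 23.6% of all genes called in either direction. Of 5 tested neutrophil markers 4 were higher, with sums of 81.0 to 398 FPKM in Control, 60.7 to 174 in PZH, 230 to 621 in Model and 149 to 345 in Model + PZH, and S100a9 was listed at 0 in all PZH mice. The T cell list had 3 of 6 higher and the B cell and endothelium lists 2 of 5 each, while 5 of 5 smooth muscle and 3 of 7 colon markers were lower. The pan-leukocyte list, with 1 of 5 higher, and the epithelium list, with 1 of 6 lower, lay near the share over all genes. Of 5 fibroblast markers 2 were higher and 1 was lower, and none of the 3 tested squamous markers and the 1 tested adipose marker passed.

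In Model + PZH against Model, no tested marker of any list passed an adjusted p under 0.05. At an unadjusted p under 0.05, 4 of 5 neutrophil, 2 of 7 macrophage and 1 of 5 fibroblast markers were lower. Higher were 3 of 7 colon markers and 1 of 5 fibroblast markers. Such a p was found for 11.7% of all genes in either direction, and for no marker of the other lists. The part of these cells in the levels of Tnf, Tnfrsf1b, Rela, Nfkb1 and Nfkbia was not tested.

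**Figure D4:**
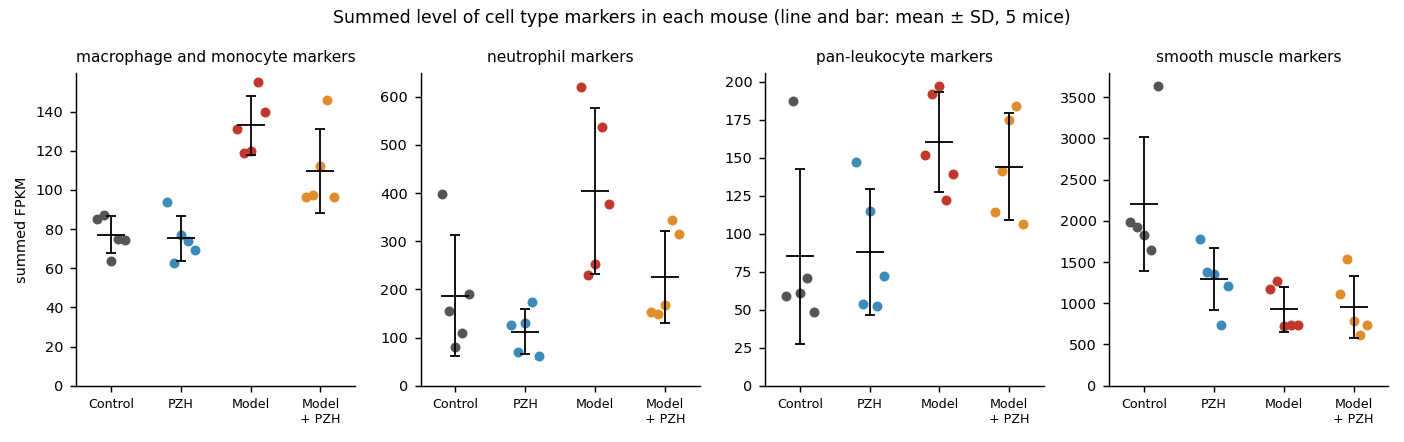
Summed FPKM (vertical axes) of macrophage and monocyte, neutrophil, pan-leukocyte and smooth muscle markers in the 4 groups, 1 point per mouse, with a line and bar for the mean ± SD of 5 mice. The macrophage sum of every Model mouse, at least 119 FPKM, lies above those of all Control mice, which reach 87.3.

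Among 17 other ligands, receptors and adaptors of the pathway, 16 were tested and Lta was not. In Model against Control 4 were higher and 1 was lower at an adjusted p under 0.05, with a median of 0.22 against 0.09 over all genes. These 5 of 16 lie near the 23.6% of all genes called. Higher were Ltb (1.77), which encodes a membrane lymphotoxin, and Tnfrsf12a (1.15), the receptor of TWEAK. Also higher, near the threshold, were Traf1 (0.79, adjusted p = 0.0475 by limma), an adaptor, and Birc2 (0.29, adjusted p = 0.0498), the ubiquitin ligase cIAP1. The Model and Control mice overlapped for Ltb and Traf1, and not for Tnfrsf12a and Birc2. Lower was Tnfrsf11a (-1.07), the receptor RANK, at a mean of 15.7 FPKM in Control and 7.09 in Model.

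Of 24 kinases, ubiquitin factors and inhibitors, all tested, 6 were higher and 1 was lower, with a median of 0.19. These 7 of 24 also lie near the share over all genes. The 5 largest rises were those of Tab3 (1.38), a partner of the kinase TAK1, Rel (1.12), the c-Rel subunit, Nfkbie (0.89), which encodes IkBe, Bcl3 (0.82), a nuclear IkB protein, and Map3k8 (0.69), a kinase. Lower was Tnip1 (-0.62), which encodes an A20-binding protein. The mean of Tab3 was 0.422 FPKM in Control and 3.18 in Model.

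Of 27 textbook NF-kB targets, 23 were tested, and Sele, Il6, Csf2 and Csf3 were not. In Model against Control 15 were higher and none was lower, with a median of 1.37, against 23.6% of all genes called, of which 2596 were higher and 1143 lower. The 5 largest rises were those of Lcn2 (5.13), an iron-sequestering protein, Cxcl5 (4.64) and Cxcl2 (4.62), neutrophil-attracting chemokines, Il1b (3.97), a cytokine, and Nos2 (3.85), the inducible nitric oxide synthase. Mean Lcn2 was 2.01 FPKM in Control, 2.05 in PZH, 112 in Model and 35.2 in Model + PZH. Neutrophil and macrophage markers moved in the same comparison, as given above. The target list was chosen with earlier results of these data known, so its share of called genes is not independent of them.

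In Model + PZH against Model none of the genes of these 3 lists passed an adjusted p under 0.05 in limma. At an unadjusted p under 0.05, 2 of 16 ligands, receptors or adaptors were lower and 1 was higher, and 2 of 24 kinases or inhibitors were lower, both near the 11.7% of all genes. Of 25 targets tested here 9 were lower and 1 was higher. The medians of the 3 lists were -0.05, -0.06 and -0.42, against -0.04 over all genes. Among the 5 targets named, Cxcl2 was at -2.64, Lcn2 at -2.36, Cxcl5 at -1.99 and Il1b at -1.17, each at an unadjusted p under 0.05. Nos2 was at -0.05 (unadjusted p = 0.872 by limma). These 5 were picked by their rise in Model against Control, which shares the Model mice, so the comparisons are not independent.

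**Figure D5:**
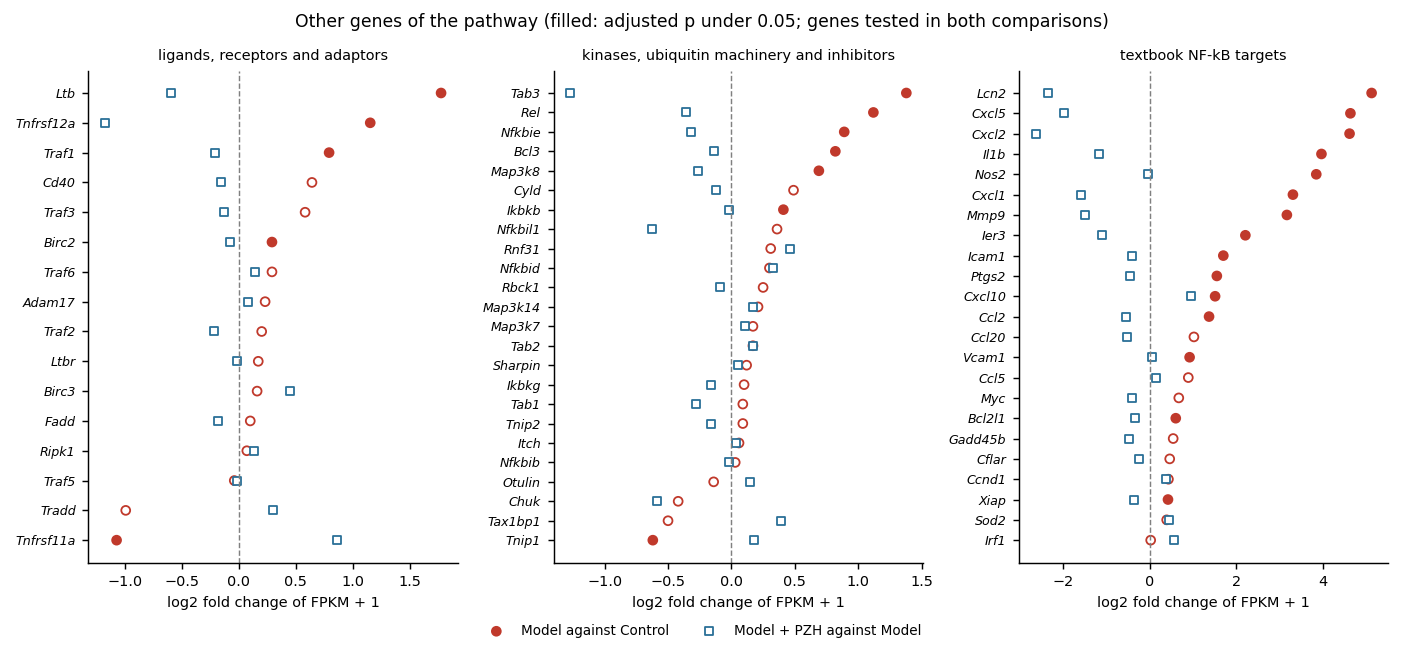
Log2 fold changes of FPKM + 1 (horizontal axes) of the other pathway genes and targets (rows) in Model against Control (red circles, filled at an adjusted p under 0.05) and Model + PZH against Model (blue squares, none below that threshold). The target Lcn2 is at 5.13 in the first comparison and -2.36 in the second, which share the Model mice.

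Likeness to Tnf and Nfkbia was described with Pearson's r of the deviations from the group means over the 20 mice, among 15551 genes. The genes most like Tnf were Slc39a6 (0.87), a zinc transporter, Lilrb4a (0.83), a receptor of myeloid cells, and Rnf183 (0.81), a ubiquitin ligase. Those most like Nfkbia were Socs3 (0.83), an inhibitor of cytokine signalling, Tnfrsf4 (0.79), the receptor OX40, and Ighv1-75 (0.77), an immunoglobulin segment whose reads can be shared with its relatives. Within the 10 genes the highest r was that of Tnf with Nfkbia (0.71), followed by Tnfrsf1b with Nfkb1 (0.68). The points share their libraries, and no test was made.

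With median-of-ratios scaling the calls over all genes in Model against Control shifted from 2596 higher and 1143 lower to 1936 higher and 1587 lower, and those in Model + PZH against Control from 242 and 136 to 217 and 216. The 4 of the 10 genes still called in Model against Control were Tnf, Tnfrsf1b, Nfkb1 and Rela.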

How the data were processed

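RNA was sequenced from the colon of 20 mice. Per the study's methods, ribosomal RNA was removed, poly(A) RNA was isolated, and the authors used HISAT2 for alignment to the mouse genome (mm10, the same build as GRCm38) and StringTie for transcript abundance. They deposited FPKM for 118434 transcripts, of which 96182 had Ensembl identifiers. The unit was inferred from the values and the methods. FPKM were summed per gene over the 96032 transcripts of GENCODE M21, which leaves out 150 Ensembl and 22252 assembled transcripts.

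Genes with at least 0.5 FPKM in 5 of 10 mice (10 of 20 for the interaction) were compared as log2(FPKM + 1) with limma 3.58.1 (intensity trend) in R 4.3.3, without covariates, with Benjamini-Hochberg adjustment over all genes tested. Depth was estimated from value steps, of which 40.9 to 46.1% of low values were whole (tolerance 0.15 FPKM × bases), so fragment numbers are approximate. Whether mice of a group shared cages or batches is not given in the sources used here.

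The 10 genes and all lists were chosen with earlier results of these data known. Named genes are the 10, up to 5 rises and 5 falls per list among genes at an adjusted p under 0.05, and the 3 genes most like Tnf and Nfkbia. Lists are described by counts and medians. Alternatives were a pseudocount of 0.1, no filter, a filter of 1 FPKM, median-of-ratios scaling, all 20 mice in 1 fit, sample weights, protein-coding transcripts only and each mouse left out. The most abundant transcript of each gene and the fits without Control mice 17 and 50 were added after seeing the data.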

Additional observations from a re-analysis of the deposited data

Results flagged for a closer look

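In 7 of 40 groups (10 genes in 4 groups of 5 mice) a single mouse lay far from the others by Dixon's criterion, of which chance flags about 1 in 20. These were Tnfrsf1a in PZH mouse 27 (28.5 FPKM), Tnfaip3 in Control mouse 48 (9.20 FPKM), Nfkbia in Model mouse 52 (74.5 FPKM), Nfkb1 in Control mouse 41 (31.4 FPKM), and Relb in Control mouse 48 (14.3 FPKM), PZH mouse 46 (15.3 FPKM) and Model mouse 33 (21.4 FPKM). In each case the mouse was the highest of its group.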

How the results depend on the processing

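No paired analysis was possible because the mouse numbers are not shared between groups. Tnf, Tnfrsf1b and Rela passed the test in Model against Control under every alternative run, and Nfkb1 under all except protein-coding transcripts only and the most abundant transcript. The 10 genes called there numbered 4 to 7 across alternatives and 4 to 6 with a mouse left out (4 without Control 41, Control 50, Model 33 or Model 52). In Model + PZH against Control 3 were called with all 20 mice in 1 fit and 0 without Control mice 17 and 50. In Model + PZH against PZH 1 was called without filter, with median-of-ratios scaling or with the most abundant transcript, 3 with sample weights, and 1 to 3 with a mouse left out. In Model + PZH against Model 0 to 1 were called, and 2 to 5 had an unadjusted p under 0.05, with a mouse left out. For PZH against Control that unadjusted count was 0 to 1, and 1 without mice 17 and 50, and for the interaction 1 to 3, and 1 with median-of-ratios scaling. Signs turned only for values that did not pass the test. With protein-coding transcripts only, they were Nfkb1 in PZH against Control (-0.03), Model + PZH against Control (-0.04) and against PZH (-0.01), Tnfrsf1a in Model + PZH against Model (0.11) and the interaction (0.16), and Relb in Model + PZH against Control (0.01). With the most abundant transcript, they were Tnfrsf1a (0.11) and Nfkb1 (0.35) in Model + PZH against Model, Relb in Model + PZH against Control (0.01), and Tnfrsf1a (0.20) and Nfkbiz (0.26) in the interaction. With sample weights, they were Relb in PZH against Control (-0.16) and Nfkbiz (0.20) and Nfkb2 (-0.06) in the interaction, and with median-of-ratios scaling Tnfrsf1a in the interaction (0.00). Without Control mice 17 and 50, they were Relb in PZH against Control (-0.25), Nfkbiz (-0.24) and Nfkb2 (-0.01) in Model + PZH against Control, and Nfkbiz in the interaction (0.26). With a mouse left out, the ranges were, in PZH against Control, Tnfrsf1b -0.09 to 0.01, Tnf -0.03 to 0.31, Relb -0.38 to 0.78 and Nfkbiz -0.48 to 0.28. In Model + PZH against Model they were Tnfaip3 -0.16 to 0.22 and Tnfrsf1a -0.21 to 0.07, and against Control Relb -0.51 to 0.36 and Nfkbiz -0.16 to 0.26. Against PZH they were Nfkbia -0.11 to 0.07, Nfkbiz -0.17 to 0.52 and Relb -0.70 to 0.15, and in the interaction Nfkbiz -0.57 to 0.19, Nfkb2 -0.10 to 0.21 and Tnfrsf1a -0.16 to 0.12. The cause was not tested. Depth limits low values such as those of Tnf and Relb, and fragments were estimated for Tnf only.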
